A study of Mus musculus with 9 samples.

Results

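The mRNAs of 10 AP-1 and immediate early genes were followed in mouse embryonic fibroblasts (MEFs) sorted for low or high MYC protein. They were taken by name from the 19769 genes of the RNA-seq table and comprised the 4 genes of the Fos family (Fos, Fosb, Fosl1 and Fosl2), the 3 genes of the Jun family (Jun, Junb and Jund), and Egr1, Ier2 and Ier3. All 10 were found and all 10 passed the minimum level for testing, so none is missing from the values below.

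Primary MEFs were made from the bodies of midgestation embryos, without head and viscera, and carried a MYC-GFP fusion on both alleles (Myc-Egfp+/+). All cells of the RNA-seq, low-MYC and high-MYC alike, were grown in 10% fetal bovine serum and were exposed for 6 h to the proteasome inhibitor MG-132 at 20 µM so that MYC-GFP accumulated. They were then sorted into low-GFP and high-GFP cells, seeded overnight and lysed, with spike-in RNA added in proportion to the number of cells. Each group had 2 libraries, which the study calls technical replicates, so the p-values below measure technical spread and not the spread between embryos or sorts. The gates were set with the same cells without MG-132 and with similar mean forward scatter for both groups. No library of sorted cells without MG-132 was analysed here, so what MG-132 itself did to these genes cannot be told apart from what both groups share. A further table held reads of TACh-seq, a nuclease digestion that releases accessible chromatin. It is named by all 4 TACh-seq samples, 2 of wild-type (WT) MEFs and 2 labelled kokd, in a study that combined Fubp1 knockout with siRNA to Fubp2, and does not say which of them a read came from.

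AP-1 is a dimer of basic leucine zipper proteins. Jun proteins pair with each other or with Fos proteins, whereas Fos proteins need a Jun partner to bind DNA. The genes are known in fibroblasts as immediate early genes: serum, growth factors and stress induce many of them within minutes, without new protein synthesis, and the mRNAs of several are short-lived. Fosl1, Fosl2 and Jund are in general less transient than Fos and Fosb. Egr1 encodes a zinc finger factor of the same response, Ier2 a small nuclear protein, and Ier3 a protein linked to survival and stress signalling.

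Of the 10, 7 were matched in a RefSeq promoter table (GRCm38.p6, the assembly of mm10), each window spanning 250 bases before the RefSeq start to 50 after it. Fosl1, Egr1 and Ier2 were not matched. The RefSeq start lay within 30 bases of the annotated start used for the read counts below in 5 of the 7 genes, but 671 bases from it in Fosl2 and 1210 bases upstream of it in Jund, so the windows of those genes are not their promoters at the annotated start. Windows are shown for Fos and Jun, which held the cyclic AMP response motifs described next, for Junb and Ier3, whose share of the RNA was higher in both high-MYC libraries, and for Fosb, which differed most in share. They lie at chr12:85473640-85473939 (plus strand) for Fos, chr4:95052173-95052472 (minus) for Jun, chr8:84978699-84978998 (minus) for Junb, chr17:35821463-35821762 (plus) for Ier3 and chr7:19309996-19310295 (minus) for Fosb. They are written 5′ to 3′ on the strand of the gene, with the motifs that were found in capitals.
Fos: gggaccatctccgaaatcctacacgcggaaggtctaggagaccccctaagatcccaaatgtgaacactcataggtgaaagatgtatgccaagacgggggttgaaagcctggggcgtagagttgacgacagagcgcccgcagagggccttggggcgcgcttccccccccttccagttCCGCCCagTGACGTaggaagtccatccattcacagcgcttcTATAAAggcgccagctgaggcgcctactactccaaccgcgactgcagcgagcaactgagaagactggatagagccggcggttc
Jun: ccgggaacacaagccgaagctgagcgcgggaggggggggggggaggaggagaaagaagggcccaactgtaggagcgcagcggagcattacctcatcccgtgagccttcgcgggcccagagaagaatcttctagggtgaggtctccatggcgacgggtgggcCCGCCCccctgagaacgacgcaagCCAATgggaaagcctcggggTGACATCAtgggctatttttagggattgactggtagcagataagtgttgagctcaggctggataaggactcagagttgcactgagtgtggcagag
Junb: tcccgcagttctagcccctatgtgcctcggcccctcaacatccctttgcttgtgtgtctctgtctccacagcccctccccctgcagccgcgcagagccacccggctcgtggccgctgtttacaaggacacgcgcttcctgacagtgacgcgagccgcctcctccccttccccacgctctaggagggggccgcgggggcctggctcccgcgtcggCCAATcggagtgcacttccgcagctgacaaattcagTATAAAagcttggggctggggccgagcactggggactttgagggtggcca
Ier3: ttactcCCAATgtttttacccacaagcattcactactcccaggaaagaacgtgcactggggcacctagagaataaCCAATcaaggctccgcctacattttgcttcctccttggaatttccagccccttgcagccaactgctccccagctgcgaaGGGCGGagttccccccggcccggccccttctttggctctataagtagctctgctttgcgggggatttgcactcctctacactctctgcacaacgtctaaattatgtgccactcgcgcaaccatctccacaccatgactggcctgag
Fosb: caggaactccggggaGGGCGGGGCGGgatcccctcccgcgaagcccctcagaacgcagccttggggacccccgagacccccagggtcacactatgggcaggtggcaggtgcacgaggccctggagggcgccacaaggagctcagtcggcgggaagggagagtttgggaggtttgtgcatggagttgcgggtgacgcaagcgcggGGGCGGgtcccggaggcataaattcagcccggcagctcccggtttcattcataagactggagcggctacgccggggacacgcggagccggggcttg

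Capitals in the Fos window mark a GC box on the other strand (CCGCCC), the core of a cyclic AMP response element (TGACGT) at -66 to -61 from the start, and a TATA box (TATAAA) at -33 to -28. In the Jun window they mark a GC box, a CCAAT box and TGACATCA at -45 to -38, a match to the 8-base motif TGACNTCA that Jun and ATF dimers are known to bind. The Junb window held a CCAAT box at -36 to -32 and a TATA box that begins at the RefSeq start itself. The annotated Junb start used for the read counts lies 30 bases downstream of that RefSeq start. The Ier3 window held 2 CCAAT boxes and 1 GC box (GGGCGG), and the Fosb window 3 GC boxes, of which 2 overlap by a base. Each motif was searched on both strands, and TGACGT overlaps TGACNTCA where the latter has G in the middle. Of 32851 promoters of this length, TGACGT was in 7.51%, TGACNTCA in 8.83%, TATAAA in 13.6%, CCAAT in 37.4% and GGGCGG in 35.7%. The AP-1 site (TGANTCA, in 7.81% of promoters), the E-box bound by MYC (CACGTG, 7.15%), the 10-letter NF-kB motif (1.63%) and the CArG box of serum response factor (1.63%) were in none of the 7 windows, and the bases next to the annotated starts of Fosl2 and Jund were not searched. A match or its absence in such a window does not show whether a factor binds.

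The deposited RNA-seq values are reads per kilobase divided by a spike-in score (normalized FPK), and so stand for mRNA per cell. Their total was 46321 and 48291 in the low-MYC libraries and 102853 and 109090 in the high-MYC libraries, and nearly every gene was higher per cell. Each value was therefore also expressed as its share of the library total (ppm, where 1000000 ppm is the whole library). A gene at the same ppm kept its place in a pool that was 2.22 to 2.36 times the first low-MYC library. Steps between the smallest values gave about 20200000 to 22400000 reads per library, which are estimates because the quantification splits reads. They assume the longest annotated transcript of each gene, as do the read numbers of single genes below. Among low values of genes with 1 transcript, only 33.8% to 35.1% lay close to a whole number of reads. Myc mRNA itself was at 9.81 and 9.86 in low-MYC and 20.3 and 20.5 in high-MYC cells per cell, and at 212, 204, 197 and 188 ppm. Its log2 change in share was -0.11 ± 0.0397 (SE, n = 2 against 2, limma adjusted p = 0.157).

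Per cell, all 10 genes were higher in both high-MYC libraries than in either low-MYC library, as were 99.0% of the genes tested. With limma over 11870 genes, 6 of the 10 were called at least 2-fold higher at an adjusted p under 0.01 (Fos, Fosl2, Junb, Jund, Ier2 and Ier3), where 55.1% of all genes tested were. At any fold 9 of the 10 were called, against 97.1% of all genes, and the exception was Fosb. The median log2 change of the 10 was 1.04 beside 1.03 over all genes tested. Jund and Ier2 came to 0.981 and 0.984 on the log2 scale, under 2-fold, without the first low-MYC library. After scaling the libraries to the same median 0 of the 10 were called higher. Of all 11870 genes, 209 were then called higher at any fold and 65 at least 2-fold. Fosl1 and Egr1 were called lower, as were 63 of all genes, these 2 among them. In share of the library total no gene of the 10 was called higher, where 1.36% of 12468 genes were, and none was called lower, where 0.353% were. Without adjustment, limma p was under 0.05 for 5 genes that were lower in share (Fosb, Fosl1, Jun, Egr1 and Ier2) and for 2 that were higher (Junb and Ier3). How many of all genes passed that unadjusted threshold was not counted, but it is a loose one. A gene at a limma p of 0.05 (Acad8) had an adjusted p of 0.161 over all genes tested. These numbers therefore do not set the 10 apart. At an adjusted p under 0.05, a threshold added after the data were seen, 4 of the 10 were lower in share (Fosb, Fosl1, Jun and Egr1) and 0 were higher, where 3.5% and 7.08% of all genes were. The median log2 change in share was -0.11 for the 10 genes and 0.00900 over all genes tested.

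**Figure D1:**
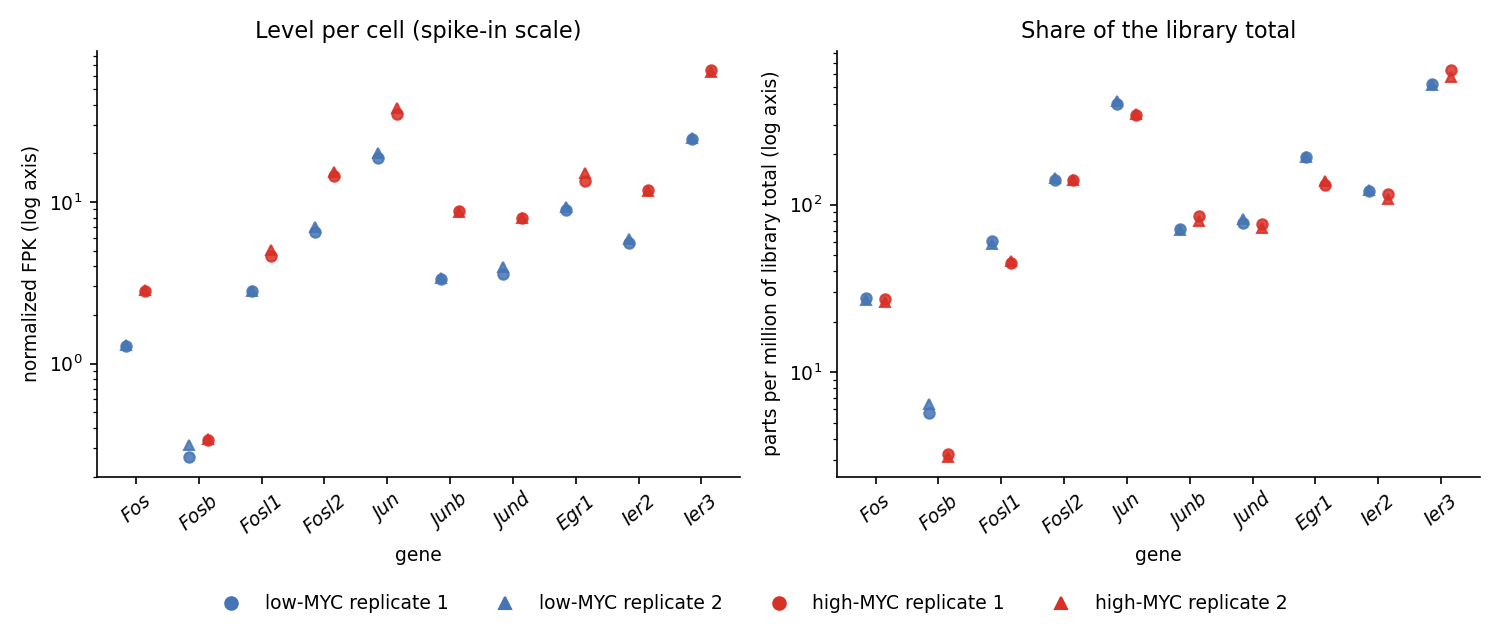
Each of the 10 genes in each of the 4 libraries, as normalized FPK (left) and as ppm of the library total (right), both on log axes, with low-MYC in blue and high-MYC in red and a circle or triangle for replicate 1 or 2. On the left every red point of a gene is above its blue points, and on the right the red points are below the blue ones for 6 genes, above them for Junb and Ier3, and among them for Fos and Fosl2.

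Levels ranged widely among the 10 genes. In low-MYC cells the order of mean normalized FPK, which is a level per length of transcript, was Ier3 (24.7 ± 0.423, SD, n = 2), Jun (19.3 ± 0.995), Egr1 (9.05 ± 0.267), Fosl2 (6.70 ± 0.332), Ier2 (5.75 ± 0.236), Jund (3.78 ± 0.256), Junb (3.37 ± 0.0429), Fosl1 (2.81 ± 0.0254), Fos (1.30 ± 0.0149) and Fosb (0.288 ± 0.0346). No neighbours in that order had overlapping libraries. In high-MYC cells Fosl2 (14.8 ± 0.515) and Egr1 (14.3 ± 1.19) overlapped, and Junb (8.72 ± 0.0565) stood above Jund (7.91 ± 0.0304). By rank among all 19769 genes, Ier3 went from 252 to 235, Jun from 315 to 376, Egr1 from 614 to 901 and Fosb from 7965 to 9803.

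In the Fos family, 3 of the 4 genes were called higher per cell at any fold, beside 97.1% of all genes. At 2-fold or more 2 of the 4 were, beside 55.1%. None was called in share, where 1.36% of all genes were called higher and 0.353% lower. Fos, the founding member and in quiescent fibroblasts one of the first genes induced by serum, was at 1.29 and 1.31 normalized FPK in low-MYC and 2.81 and 2.86 in high-MYC libraries, a log2 change of 1.07 ± 0.0431 (SE, adjusted p = 1.04e-05). As ppm it was at 27.8 and 27.1 against 27.3 and 26.2, so the groups overlapped. The log2 change in share was -0.04, with a 95% interval from -0.14 to 0.06 (adjusted p = 0.538). About 545 to 632 reads stood behind each Fos value.

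Fosl2, also called Fra-2 and the most abundant Fos family mRNA here, was at 6.47 and 6.94 normalized FPK in low-MYC and 14.5 and 15.2 in high-MYC libraries (log2 change 1.13 ± 0.0541, adjusted p = 1.26e-05). Its ppm values were 140 and 144 against 141 and 139, which overlapped. The interval of its log2 change in share ran from -0.10 to 0.06 (adjusted p = 0.735). For both Fos and Fosl2 the interval reached no further from 0 than 0.14 on the log2 scale.

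Fosl1, also called Fra-1, was at 2.79 and 2.83 normalized FPK against 4.63 and 5.02 (log2 change 0.76 ± 0.0536, adjusted p = 3.82e-05). As ppm it was at 60.3 and 58.6 in low-MYC and 45.0 and 45.97 in high-MYC libraries, with no overlap and a wider gap between the groups than within them. The log2 change in share was -0.38 ± 0.0318 with an interval from -0.47 to -0.29, and its adjusted p of 0.0117 was just over the threshold of 0.01. Fosl1 was called higher per cell, by less than the median gene.

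Fosb, the least abundant of the 10, was the only gene of the 10 whose level per cell was not called higher at any fold. It was at 0.263 and 0.312 normalized FPK in low-MYC and 0.336 and 0.339 in high-MYC libraries, with a log2 change of 0.18 ± 0.0768 (adjusted p = 0.0684) and an interval from -0.02 to 0.37. As ppm it was at 5.68 and 6.46 against 3.26 and 3.11, a log2 change of -0.75 ± 0.0681 (adjusted p = 0.0132). About 116 to 270 reads stood behind these values. Of all genes tested, 0.289% had a lower log2 change in share.

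In the Jun family no gene was called in share, where 1.36% of all genes were called higher and 0.353% lower. Jun, the main partner of Fos proteins, was at 18.6 and 20.0 normalized FPK in low-MYC and 35.2 and 37.9 in high-MYC libraries (log2 change 0.92 ± 0.0608, adjusted p = 2.98e-05). As ppm it was at 400.5 and 413 against 342 and 347. Both high-MYC libraries were lower, by a log2 change of -0.24 ± 0.0309 with an interval from -0.32 to -0.15 (adjusted p = 0.0259).

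Junb, which can oppose Jun at some target genes, was at 3.34 and 3.40 normalized FPK against 8.76 and 8.68, a log2 change of 1.35 ± 0.0401 (adjusted p = 1.04e-05). Its ppm values were 72.0 and 70.3 in low-MYC and 85.2 and 79.6 in high-MYC libraries, with no overlap. The log2 change in share was 0.21 ± 0.0444 with an interval from 0.09 to 0.33 (adjusted p = 0.066), which lies wholly above the interval of Jun. The difference between the genes was not tested.

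Jund, the Jun family member with the steadiest expression in resting cells, was at 3.60 and 3.96 normalized FPK against 7.89 and 7.93 (log2 change 1.05 ± 0.0574, adjusted p = 1.71e-05). Its ppm values were 77.7 and 82.0 against 76.7 and 72.7. The groups did not overlap, but the interval of its log2 change in share, -0.22 to 0.03, contained 0 (adjusted p = 0.256).

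Summed over both families, the split between Fos and Jun mRNA was nearly the same in the 4 libraries, whereas single genes took different parts of the pool. The 7 genes summed to 36.3 and 38.7 normalized FPK in low-MYC and 74.05 and 77.9 in high-MYC libraries. Fos family mRNAs were 29.8% and 29.4% of that sum in low-MYC and 30.04% and 30.05% in high-MYC libraries. Within the pool Jun was at 51.1% and 51.6% against 47.5% and 48.6%, Junb at 9.19% and 8.78% against 11.8% and 11.1%, and Fosl2 at 17.8% and 17.9% against 19.5% in both. Fosl1 was at 7.69% and 7.31% against 6.25% and 6.44%, and Fosb at 0.725% and 0.807% against 0.453% and 0.436%. The ratio of Junb to Jun mRNA was 0.180 and 0.170 in low-MYC and 0.249 and 0.229 in high-MYC libraries. As a share of the whole library the pool was at 784 and 801 ppm against 720 and 714 ppm. These sums are descriptions of mRNA, weighted toward the abundant genes, and carry no test.

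**Figure D2:**
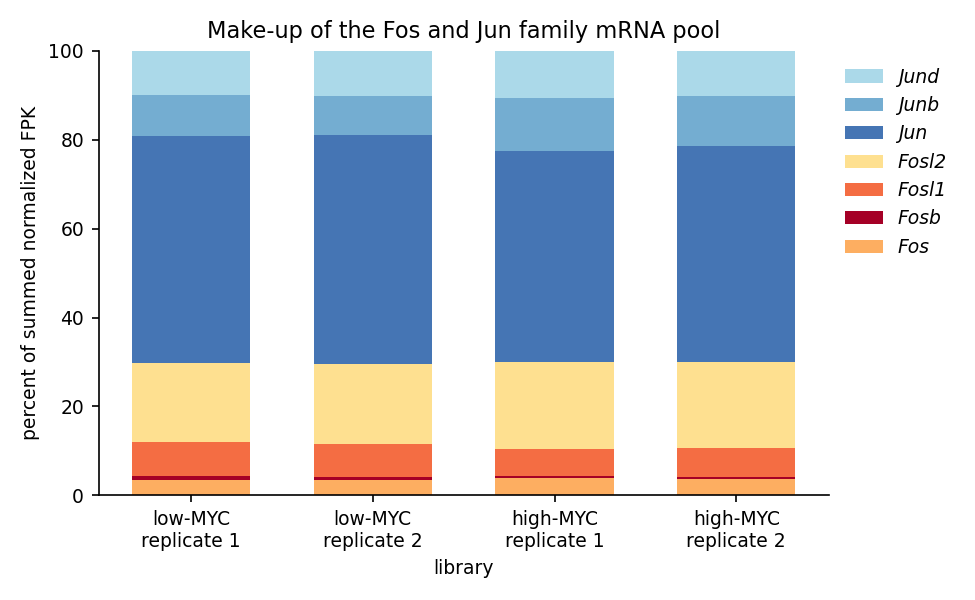
Percent of the summed normalized FPK of the 7 Fos and Jun family genes taken by each gene, with 1 stacked bar for each library. Jun is the largest part of every bar (47.5% to 51.6%), the Junb part is wider in the high-MYC bars, and the Fosb part is the thinnest in all 4.

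Egr1 and Ier3 lay toward opposite ends of the 10 genes. Egr1 was at 8.86 and 9.24 normalized FPK in low-MYC and 13.4 and 15.1 in high-MYC libraries (log2 change 0.65 ± 0.0679, adjusted p = 0.000202). As ppm it was at 191.2 and 191.3 against 131 and 139. The log2 change in share was -0.50 ± 0.0393 with an interval from -0.61 to -0.40 and an adjusted p of 0.0105, just over the threshold.

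Ier3 was at 24.4 and 24.97 normalized FPK in low-MYC and 65.3 and 63.3 in high-MYC libraries, the largest log2 change per cell of the 10 (1.38 ± 0.0432, adjusted p = 1.04e-05). Its ppm values were 526 and 517 against 635 and 580, with no overlap and a wide spread in high-MYC cells. The log2 change in share was 0.22 ± 0.0526 (interval 0.07 to 0.36, adjusted p = 0.0801). The ratio of Ier3 to Egr1 mRNA was 2.75 and 2.70 in low-MYC and 4.86 and 4.19 in high-MYC libraries.

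Ier2 was at 5.59 and 5.92 normalized FPK against 11.9 and 11.8 (log2 change 1.02 ± 0.0465, adjusted p = 1.16e-05). Its share was 121 and 123 ppm against 115 and 108 ppm, and the log2 change in share was -0.12 ± 0.0434 (adjusted p = 0.151). Over all 10 genes the ppm values of the groups did not overlap for 8 genes, with high-MYC below low-MYC in 6 and above in 2. Among all genes tested, high-MYC was below in 28.4% and above in 33.7%.

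**Figure D3:**
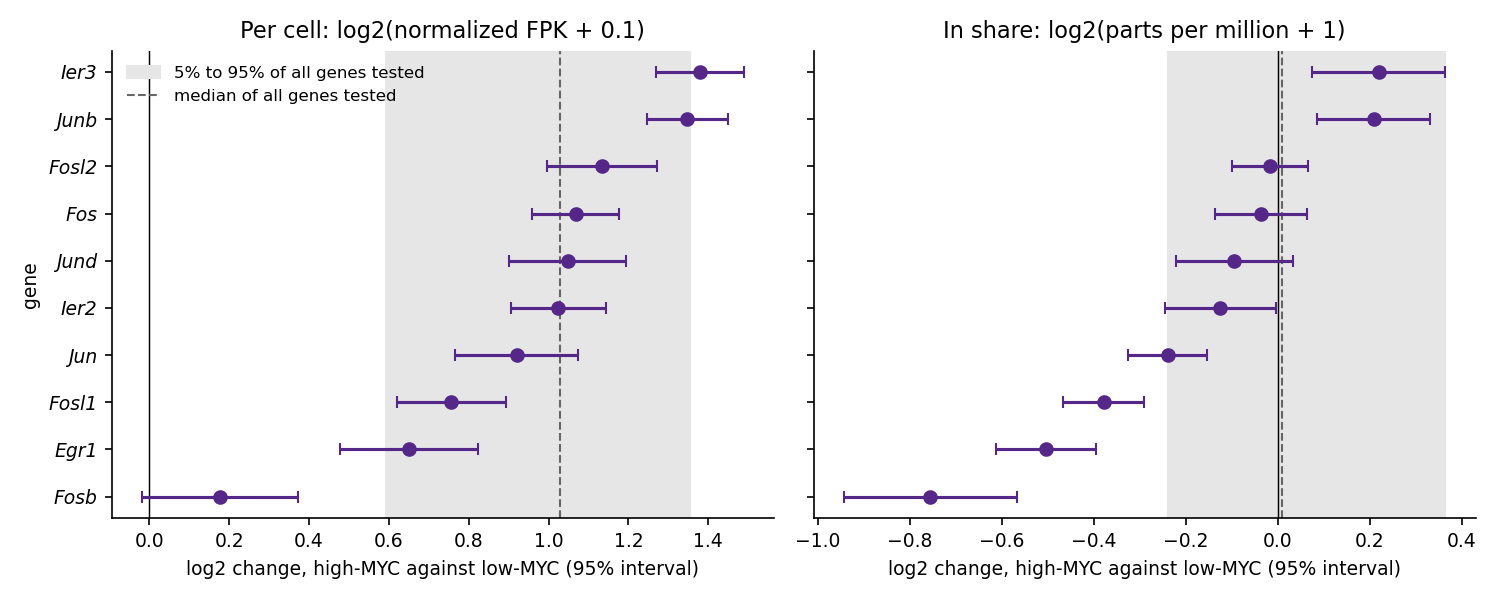
Log2 change from low-MYC to high-MYC cells for each of the 10 genes, per cell (left) and in share of the library total (right), with 95% intervals from limma, the range from 5% to 95% of all genes tested in grey and their median as a dashed line. Fosb, Egr1, Fosl1 and Jun lie left of the dashed line on both sides and Junb and Ier3 to its right, and on the left the interval of Fosb alone reaches 0.

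Genes of the same response were counted from 5 lists of 85 genes in all. Of these, 82 were found and 77 had enough signal to test. Per cell, 38 of the 77 (49.4%) were called at least 2-fold higher, beside 55.1% of all genes. In share, 5 were called higher (6.49%, beside 1.36% of all genes) and 4 lower (5.19%, beside 0.353%). The genes called lower were Nr4a1, Dusp2, Dusp4 and Dusp5, and those called higher were Socs3, Nfkbiz, Mmp3, Il6 and Ccnd1. Most calls in share over all genes were lost when any 1 library was left out. Such a fit has less power, so how far the calls depend on single libraries cannot be told from it.

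AP-1 partner factors of the ATF, MAF and JDP2 kinds held 8 tested genes, of which 4 were called at least 2-fold higher per cell and none in share. The lowest log2 changes in share were -0.18 for Mafg (adjusted p = 0.0337), -0.13 for Mafk and -0.04 for Atf2. Among the higher were 0.33 for Maf and 0.13 for Maff, neither of them called. Maf is also known as a factor of macrophages, whose markers are given below. Atf3, a stress-induced partner of Jun proteins, was below the minimum, at 0.0458 and 0.0506 normalized FPK in low-MYC against 0.0769 and 0.0784 in high-MYC libraries.

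Of 14 tested transcription factors of the immediate early response, 6 were called at least 2-fold higher per cell. In share 1 was called lower and none higher. That gene was Nr4a1, an orphan nuclear receptor induced by growth factors, at 55.9 and 52.3 ppm against 32.2 in each high-MYC library (log2 change -0.73, adjusted p = 0.0061). Egr3, a relative of Egr1, had a log2 change in share of -0.47 (adjusted p = 0.0155), and Csrnp1, a nuclear protein induced by AXIN1, -0.45 (adjusted p = 0.0103). The highest changes were 0.25 for Npas4, 0.22 for Nab1 and 0.01 for Ier5l, none of them called. The list median was -0.17, beside -0.11 for the 10 genes and 0.00900 for all genes.

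Effectors of the response held 29 tested genes, of which 11 were called at least 2-fold higher per cell. In share 3 were called lower, and all 3 encode dual-specificity phosphatases that turn off MAP kinases. Dusp4 was at 57.3 and 57.5 ppm in low-MYC against 30.8 and 29.9 ppm in high-MYC libraries (log2 change -0.90, adjusted p = 0.00257). Dusp2 had a log2 change of -0.89 (adjusted p = 0.00674) and Dusp5 of -0.65 (adjusted p = 0.00643). The 2 called higher were Nfkbiz, an NF-kB cofactor, at 11.7 and 11 ppm against 20.9 and 19.9 ppm (log2 change 0.79, adjusted p = 0.00643), and Socs3, a brake on cytokine signalling, at 37.6 and 36.0 against 56.5 and 54.3 ppm (log2 change 0.58, adjusted p = 0.00834). Gem, a small GTPase, followed at 0.31 (adjusted p = 0.0604). The list median was -0.16.

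Kinases and cofactors upstream of these genes, most of which act by phosphorylation, had log2 changes in share close to 0. Of 16 tested, 11 were called at least 2-fold higher per cell and none in share. Their log2 changes in share ran from -0.12 (Elk4), -0.07 (Map2k4) and -0.06 (Mapk8) to 0.09 (Map2k7), 0.10 (Map2k2) and 0.12 (Mapk3, which encodes ERK1), with a median of -0.01.

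Of 10 known AP-1 targets of fibroblasts, all tested, 6 were called at least 2-fold higher per cell, and in share 3 were called higher and none lower. Mmp3, the protease stromelysin, was at 5.35 and 5.42 ppm in low-MYC against 20.6 and 18.3 ppm in high-MYC libraries (log2 change 1.68, adjusted p = 0.00316). Il6, a cytokine, was at 8.78 and 7.86 against 21.4 and 21.3 ppm (log2 change 1.26, adjusted p = 0.00409), and Mmp13, a collagenase, had a log2 change of 0.89 (adjusted p = 0.0141). Ccnd1, which encodes cyclin D1, was called higher at 0.40 (adjusted p = 0.00757). At the other end were Plaur, the urokinase receptor (-0.49, adjusted p = 0.0105), Mmp10 (-0.38) and Cd44 (-0.33). The list median was 0.13.

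**Figure D4:**
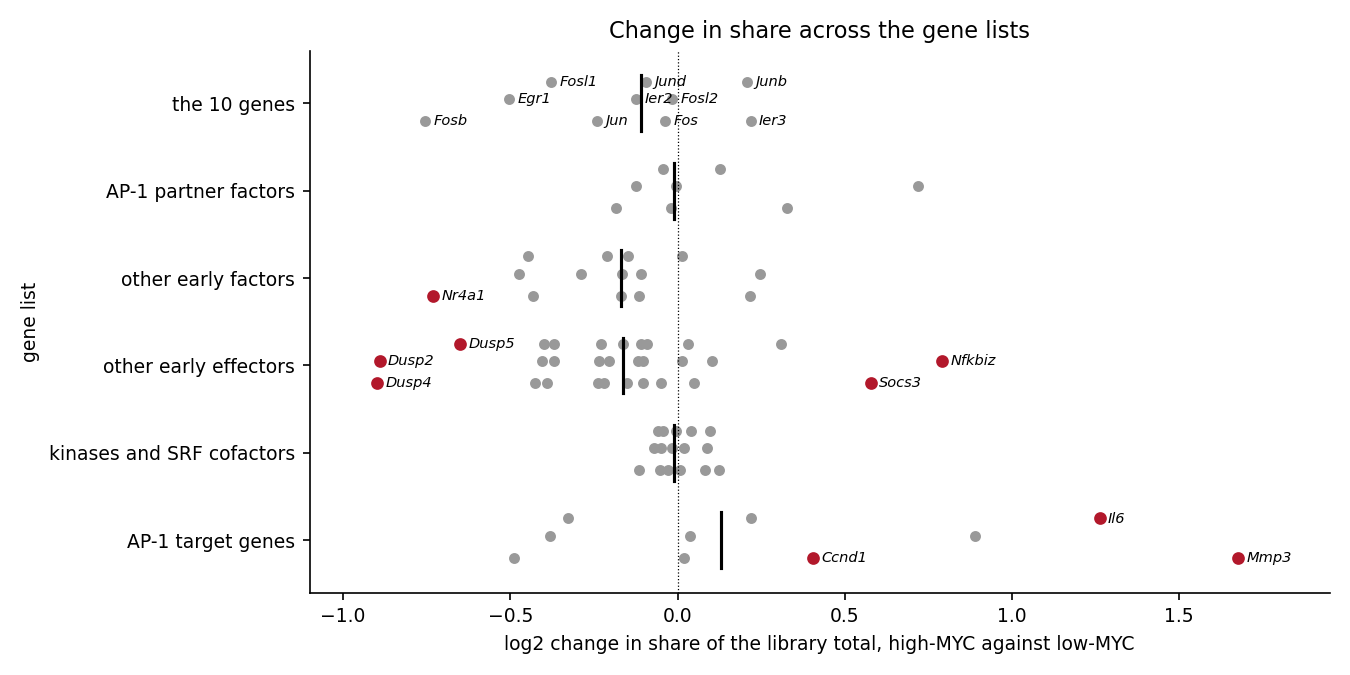
Log2 change in share of the library total from low-MYC to high-MYC cells for the 10 genes and for 5 lists of related genes, with 1 point for each gene tested, red where the adjusted p was under 0.01, and the list median as a black bar. Points are spread vertically only to keep them apart. The kinases lie closest to 0, the called effectors lie on both sides, and none of the 10 genes is red.

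Markers of another cell type and stress genes moved with the groups. All 20 macrophage markers of a list were higher in both high-MYC libraries, per cell (99.0% of all genes tested) and also in ppm (33.7% of all genes tested). Only 11 of the 20 passed the minimum level for testing, whereas both percentages are over genes that passed it. The 20 markers summed to 0.952 and 1.31 normalized FPK in low-MYC against 30.4 and 31.8 in high-MYC libraries (20.5 and 27.1 against 296 and 291 ppm). None was at 0 in both low-MYC libraries or in any high-MYC library, and 4 were at 0 in 1 low-MYC library. Fibroblast markers summed to 397 and 404 against 970 and 999 normalized FPK (8570 and 8362 against 9435 and 9158 ppm), far above the macrophage markers in all 4 libraries. In ppm 7 of these 10 markers were higher in both high-MYC libraries and 1 was lower, beside 33.7% and 28.4% of all genes tested. Of 11 genes of proteotoxic stress, which MG-132 is known to induce, 4 were called lower in share (Hmox1, Hspa1a, Hspa1b and Sqstm1), beside 0.353% of all genes. The list summed to 1984 and 1937 ppm against 1253 and 1188 ppm. Per cell its sum was higher in high-MYC libraries, at 91.9 and 93.5 against 129 and 130 normalized FPK. At any fold 8 of the 11 were called higher per cell, beside 97.1% of all genes, and 3 lower, where 3 of all 11870 genes were. Immediate early genes are also known to be expressed in macrophages and in stressed cells. The part of either in the differences above was not tested, and in these bulk libraries more cells of a type cannot be told apart from more RNA per cell.

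Accessible chromatin was listed around the starts of all 10 genes. The TACh-seq table held 4881417 reads, and those within 1 kb of each gene's annotated start were counted. The count was 667 for Fosl2, 464 for Jun, 423 for Jund, 402 for Egr1, 283 for Junb, 241 for Fos, 172 for Ier3, 169 for Ier2, 105 for Fosb and 58 for Fosl1. The median was 262, where 10227 expressed protein-coding genes had a median of 140 with quartiles of 86 and 215.5. Of those genes, 84.8% had a listed read there, against 16.2% of the other protein-coding genes. Fosl2, Jun, Jund and Egr1 had more reads than at least 95.9% of expressed genes, whereas Fosb had more than 33.5% and Fosl1 more than 17.5%. These are single values with no replicates, so they carry no error or test. The label wt1 on the TACh-seq table points to the first wild-type sample, but all 4 TACh-seq samples name the table. Whether the reads come from a single sample or from several is therefore not certain. The table lists no reads over long stretches of the genome, so a low number is not a measure of closed chromatin.

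At 8 of the 10 genes most reads lay upstream of the start. The fullest 100-base bin was the one just before the start for Fos (51 reads), Fosl2 (162), Junb (46), Ier2 (24) and Ier3 (27). It lay from -200 to -100 for Jund (69) and from -400 to -300 for Jun (79). At Fosb the bins from -300 to -200 and from -100 to 0 tied at 16 reads. At Fos, 30 reads covered the TGACGT shown above, and at Jun 42 reads covered TGACATCA. Over the printed windows 92 reads lay for Fos, 154 for Jun, 124 for Junb, 86 for Ier3 and 42 for Fosb.

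Egr1 and Fosl1 were the exceptions, with most reads downstream of the annotated start that was used. At Egr1, 25 of the 402 reads (6.22%) were upstream of the annotated start, and the fullest bin was 700 to 800 bases downstream (74 reads). The annotation holds a second Egr1 start 1384 bases further on, within 1 kb of which 485 reads lay, 81.0% of them upstream of it. At Fosl1, 25.9% of the 58 reads were upstream. The annotation holds 3 Fosl1 starts, and 89 reads lay within 1 kb of any of them. Other genes start close by at Jun (Junos, 688 bases away), Jund (Gm11175, 1131 bases) and Ier3 (Flot1, 1546 bases), and reads there cannot be assigned to 1 of the starts.

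**Figure D5:**
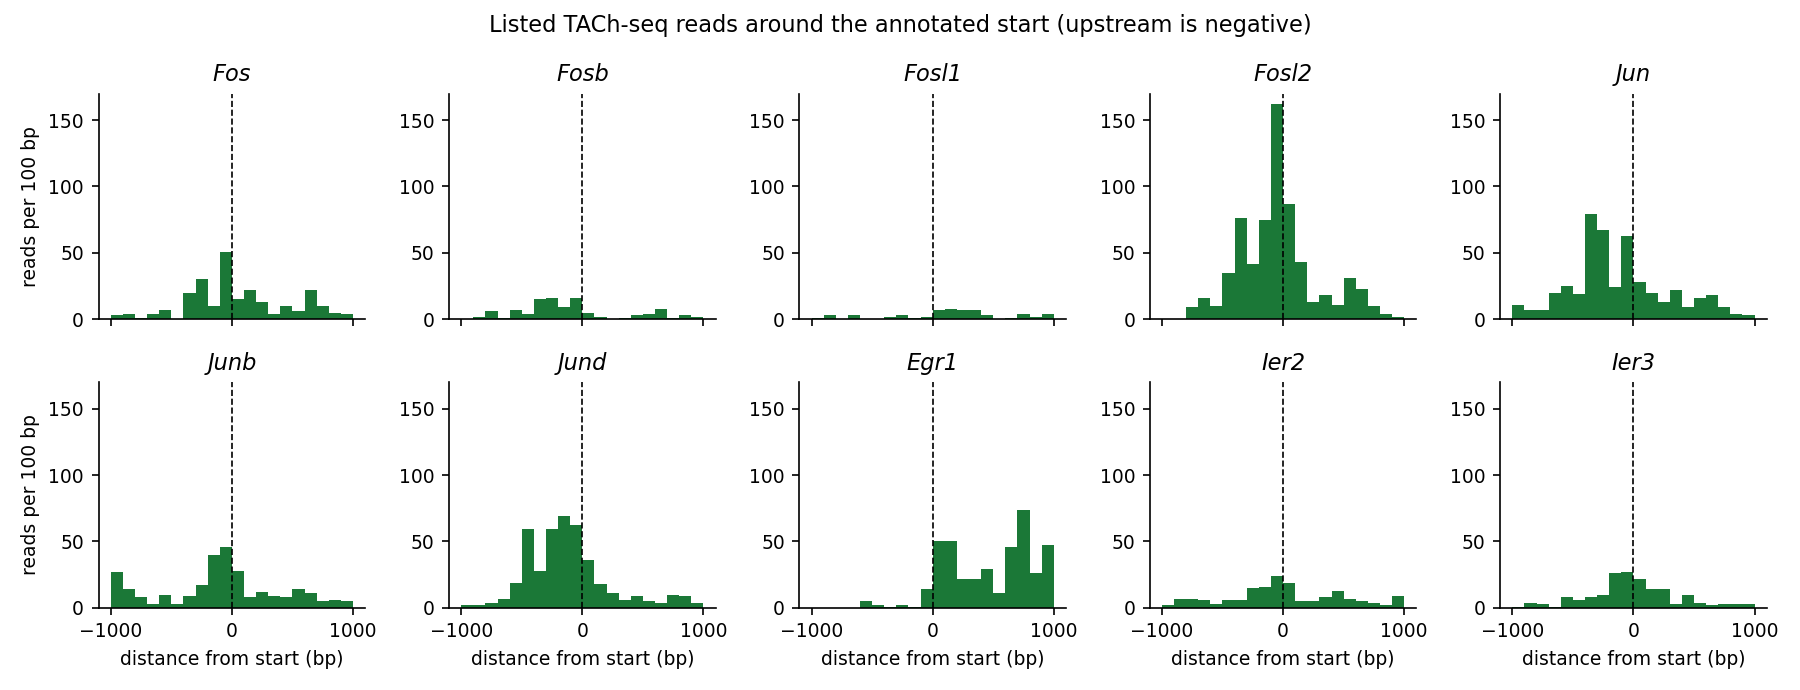
Listed TACh-seq reads in bins of 100 bases within 1 kb of the annotated start of each of the 10 genes, on 1 common linear axis, with upstream to the left and the start as a dashed line. Fosl2 has the tallest bin (162 reads), and most Egr1 reads lie to the right of the start (377 of 402).

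The FUBP1 ChIP-seq peak list held 166 peaks, all of them on chromosome 15, where none of the 10 genes lies, and was not used further. The study counts far more peaks and reports FUBP1 binding at many other genes, so this list does not show whether FUBP1 binds the 10 genes. The genes lie on chromosomes 12 (Fos), 7 (Fosb), 19 (Fosl1), 5 (Fosl2), 4 (Jun), 18 (Egr1) and 17 (Ier3), and on 8 for Junb, Jund and Ier2.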

How the data were processed

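The sample labels gave the groups of 4 RNA-seq libraries (low-MYC or high-MYC), 4 TACh-seq samples that name 1 table, and 1 FUBP1 ChIP-seq sample. To make the RNA-seq table, the authors used TopHat with mm10 transcripts and estimated abundance by expectation maximization in Partek. They scaled by transcript length (FPK), then by the geometric mean of 10 ERCC spike-ins in each library. The deposited signal thus counts mRNA against cells, not against library size. For TACh-seq, the submitters' processing notes name Bowtie2, SICER and mm10. The deposited table gives read positions and a mapping score from 11 to 42. Other versions are not given in the sources used here.

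From these values, log2(normalized FPK + 0.1) where the mean was 0.1 or more, and log2(ppm of the library total + 1) where the mean was 1 ppm or more, were compared with limma 3.58.1 (lmFit, eBayes with trend) in R 4.3.3, with Benjamini-Hochberg adjustment over all genes tested. Folds of low genes are understated by the pseudocount. The threshold was an adjusted p under 0.01, with at least 2-fold per cell. No design beyond group entered the model, and the test was checked on simulated data. Read midpoints were counted within 1 kb of the 5′ end of each gene. The 10 genes and all lists were chosen with earlier results of these data known, so no count over them is independent evidence. All 10 genes are named, and of other lists the 3 highest and 3 lowest by change in share and those called, except 1 gene that is not reported here. Markers and stress genes are given as list sums. Batf2, Batf3 and Mkl1 were not matched. Other settings, tried one at a time, were pseudocounts, minimum levels, scaling, the eBayes trend, a replicate block, each library left out and other windows. Columns of per-sample values without a sample numbered 0.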

Additional observations from a re-analysis of the deposited data

How the results depend on the processing

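The count of 6 genes at least 2-fold higher per cell was 6 under the other pseudocount of 0.01, either other minimum level, no eBayes trend and a replicate block, and 4 to 6 with 1 library left out, the lower number being without the first low-MYC library. It was 3 with a pseudocount of 1 and 0 after scaling all libraries to the same median. The same count over all genes moved from 6540 of 11870 to 10076 with a pseudocount of 0.01 and 1448 with a pseudocount of 1. It was 4779 of 5608 at a minimum mean of 1, where Fosb was not tested, and 6481 of 19769 with no minimum. An unchanged count of the 10 is therefore not an unchanged place among all genes. After the scaling, 65 of 11870 genes were called at least 2-fold higher and 63 lower at any fold. That scaling removes the difference in total by construction, and turned 8 log2 changes per cell to -0.051 (Fos), -0.71 (Fosb), -0.39 (Fosl1), -0.032 (Fosl2), -0.25 (Jun), -0.11 (Jund), -0.52 (Egr1) and -0.14 (Ier2), of which Fosl1 (limma adjusted p = 0.00737) and Egr1 (0.00809) were called lower. In share, 0 genes were called higher under every setting run. The number called lower was 2 with the median as denominator (Fosl1 and Egr1), where 68 of 12466 genes were. It was 4 at an adjusted p under 0.05, which was added after seeing the data, where 3.5% of all genes were. Of 100 recomputed changes in share, 1 turned in direction, that of Fosl2, which ran from -0.037 to 0.00335 with 1 library left out and was above 0 without the second low-MYC library. Over all genes, the 170 and 44 calls in share became 0 and 0 under the replicate block, and most were lost with a library left out. The block leaves 1 residual degree of freedom instead of 2, and a library left out also lowers the power. The lost calls therefore do not show how far single libraries carry the calls, which remain fragile. The replicate numbers paired nothing: deviations of libraries with the same number correlated at 0.081 per cell and 0.0723 in share over genes. TACh-seq reads summed over the 10 genes were 2984, and 2180 within 500 bases, 4650 within 2 kb, 2081 with reads of the same position and strand counted once, 3630 over every annotated start and 3067 with Egr1 at its second start, an alternative added after seeing the data. Fosb values rest on the fewest reads.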
